A study of Mus musculus with 6 samples.

Results

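The mitochondrial ribosomal protein genes are the nuclear genes that encode the proteins of the mitochondrial ribosome. They were taken here as the protein-coding genes of the GENCODE mouse annotation on mm10 whose symbol begins with Mrpl or Mrps followed by a digit, which gave 78 of 21938 protein-coding genes. Of these, 49 carried the large-subunit prefix Mrpl and 29 the small-subunit prefix Mrps. Open chromatin was read from 6 peak lists made by ATAC-seq, in which a transposase cuts accessible DNA and the pile-up of cuts is called as peaks. The cells were primary adipocytes of wild-type male C57BL/6J mice aged 3 to 4 weeks, differentiated in culture for 7 days from the stromal vascular fraction, the precursor-containing cells left when fat is digested. The 2 beige and 2 white libraries began from inguinal subcutaneous fat and the 2 brown libraries from brown fat, so that depot and condition cannot be told apart for brown. Beige and brown cultures received insulin at 5 µg/ml, dexamethasone at 5 µM, isobutylmethylxanthine at 0.5 mM, T3 at 1 nM and rosiglitazone at 1 µM, whereas white cultures received insulin at 5 µg/ml, dexamethasone at 1 µM and isobutylmethylxanthine at 0.5 mM, with neither T3 nor rosiglitazone. These concentrations are those of the labels, and the study's methods give other insulin concentrations for the beige and white cultures. The labels give replicate numbers only. The study's reporting form calls ATAC-seq replicates biological, but its text does not describe the brown libraries, whose account here comes from the labels alone. The form's list of deposited files names the beige and white libraries but no brown ones. Whether brown was prepared along with them is not known, so batch and condition cannot be told apart for brown either.

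The mitochondrial ribosome sits in the matrix and translates the few messages of the mitochondrial genome, all of which encode membrane subunits of the respiratory chain and ATP synthase. Its RNAs come from mitochondrial DNA, while every one of its proteins is made in the cytosol from a nuclear gene and imported. Brown and beige fat cells are rich in mitochondria and burn fuel for heat, which is why the promoters of these genes are of interest beside those of white cells. The symbols do not follow the assembled particle exactly: the proteins of Mrps30 and Mrps18a lie in the large subunit, and Mrps36 is also known as a component of the 2-oxoglutarate dehydrogenase complex.

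The regions around the start sites show how the promoters are built, and those below were chosen because their genes ranked highest or had the closest head-to-head neighbour. All are mm10 sequences read on the strand of the named gene, and capitals mark letters that match the ETS consensus (CCGGAAG, or CTTCCGG on the other strand), the NRF1 consensus (GCGCANGCG or CGCNTGCGC) or the YY1 consensus (AANATGGCG or CGCCATNTT). For 3 head-to-head pairs the whole stretch between both starts is shown with 30 bases to each side. Mrps27 with Ptcd2 lies at chr13:99344675-99344816 on the plus strand, with the Ptcd2 start at base 31 and the Mrps27 start at base 112. Mrps18c with Helq lies at chr5:100798568-100798657 and Mrps34 with Eme2 at chr17:24895057-24895146, both on the plus strand with the partner's start at base 31 and the member's at base 60. Mrpl44, which has no such neighbour, is shown at chr1:79775918-79776048 on the plus strand, from 100 bases before its start to 30 after.
Mrps27 and Ptcd2: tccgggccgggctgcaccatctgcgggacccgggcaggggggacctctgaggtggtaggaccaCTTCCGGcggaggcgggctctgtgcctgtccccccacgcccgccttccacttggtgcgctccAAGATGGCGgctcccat
Mrps18c and Helq: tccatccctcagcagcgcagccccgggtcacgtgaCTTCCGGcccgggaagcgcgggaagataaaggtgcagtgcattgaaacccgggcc
Mrps34 and Eme2: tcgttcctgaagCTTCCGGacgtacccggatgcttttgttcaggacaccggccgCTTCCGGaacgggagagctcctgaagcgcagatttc
Mrpl44: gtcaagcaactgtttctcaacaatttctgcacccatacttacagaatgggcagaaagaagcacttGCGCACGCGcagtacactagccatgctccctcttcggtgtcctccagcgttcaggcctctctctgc

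Where the match lay elsewhere in the window around the summit of beige replicate 1, 29 bases around it are shown. The ETS stretch of Mrps33 is chr6:39810881-39810909 on the minus strand, and its NRF1 stretch overlaps it at chr6:39810868-39810896. The NRF1 stretch of Mrpl39 is chr16:84735350-84735378, the ETS stretch of Mrpl18 is chr17:12916314-12916342, and that of Mrpl54 with NRF1 letters is chr10:81266679-81266707, all on the minus strand. The YY1 stretches of Mrps14, at chr1:160195254-160195282 on the plus strand, and of Mrpl46, at chr7:78783013-78783041 on the minus strand, were added after the matches had been seen.
Mrps33, ETS: ggggggcgggcCTTCCGGggacgcgcgtg
Mrps33, NRF1: tccggggacgCGCGTGCGCgaggtcagga
Mrpl39, NRF1: aggagaggcGCGCATGCGCccccgcgtgg
Mrpl18, ETS: aactgaaaacgCCGGAAGtagggggctgc
Mrpl54, NRF1: aggattgactGCGCAGGCGcagcgttacg
Mrps14, YY1: ctgggcagacAACATGGCGgcgtccgtgc
Mrpl46, YY1: ggaagacagaAAGATGGCGgcgcccgtag

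All 78 genes had a promoter peak in all 6 libraries, as did 62.0% of the 21851 protein-coding genes with an annotated coding start. A promoter peak was a called peak whose summit, the base of highest pile-up, lay within 1 kb of an annotated start of a protein-coding transcript, and where a gene had several, the one of highest fold enrichment was used. The lists held 109143 to 127490 peaks, and 14377 to 14579 genes per library had a promoter peak. The weakest member peak had a -log10 q value of 18.4, in white replicate 2, against a lowest value of 1.30 in the lists, so none of these calls lay near the calling threshold. Peak lists give no read depth. The study's reporting form gives fewer mapped reads, and a lower mapped share, for both beige than for both white libraries. It has no entry for brown, and the part of depth in the results below was not tested. Fold enrichment is relative to each library's own background, so each peak is given below by its percentile, the percent of peaks in the same list with a lower fold enrichment. With 2 libraries against 2, an exact two-sided permutation test cannot go below p = 0.333, and no p-value is given between conditions.

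The marker genes of other cells were read in the same way. Of the adipocyte markers 8 of 8 had a promoter peak in all 6 libraries, Adipoq and Plin1 at their lowest at percentiles 2.53 and 5.23, and of the progenitor markers 3 of 3. Macrophage markers had one for 2 of 3 genes, with Csf1r listed in none, and endothelial markers for 2 of 3, with Cdh5 in none. Of the macrophage markers with a peak, Adgre1 was at percentiles 21.7 to 59.8 and Cd68 at 0.727 to 45.9. The endothelial markers Pecam1 and Kdr were higher, at 65.4 to 88.5 and 71.1 to 79.8. Brown markers had one for 4 of 6, Ucp1 having a peak in both brown libraries alone, at percentiles 9.12 and 4.22. Zic1 was called in both brown libraries, at 43.2 and 63.8, and in beige replicate 2, at 14.9. Prdm16 was highest in white, at 48.0 and 31.1, against 15.2 and 11.3 in brown and 3.96 and 2.81 in beige. Cidea was highest in brown, at 77.8 and 78.6, and in Ppargc1a both white values, 34.4 and 24.9, were lowest. For Ebf2 the white values, 91.3 and 68.1, overlapped with beige and brown. Open marker promoters do not count cells, and the part of other cells in the results below was not tested.

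The member promoters stood near the top of every list. Their median percentile was 96.2 and 96.3 in the beige libraries, 93.8 and 95.3 in the white libraries and 94.6 and 95.0 in the brown libraries, against 87.9 and 86.4, 87.3 and 84.4, and 88.3 and 89.7 for all genes with a promoter peak. The beige mean was 96.3 ± 0.0320 (SD, n = 2), the white mean 94.6 ± 1.06 and the brown mean 94.8 ± 0.302. Both beige medians lay above those of the other 4 libraries, by less than the white replicates differed from each other, and white and brown overlapped. Between 51 and 61 of the 78 members per library lay above the 90th percentile. That was 65.4% to 78.2% of the members and 36.6% to 49.3% of all genes with a promoter peak.

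Small-subunit symbols had a median of 96.8 ± 0.503 in beige, 96.0 ± 1.27 in white and 96.0 ± 0.185 in brown, and large-subunit symbols 95.4 ± 0.811, 92.4 ± 1.01 and 93.4 ± 0.0838 (SD, n = 2). The small-subunit value was the higher one in each condition. The other genes of mitochondrial translation, a list of 52 genes, had a promoter peak in all 6 libraries for 51, Mtg2, a GTPase of ribosome assembly, being the exception with peaks in 4 libraries. Their medians were 96.8 ± 0.132 in beige, 94.8 ± 0.0870 in white and 95.3 ± 0.497 in brown. Within that list the 17 mitochondrial aminoacyl-tRNA synthetases, which charge the tRNAs, had medians of 97.2, 96.0 and 96.8, and the 11 translation factors 95.0, 94.0 and 93.9. Of the 19 ribosome assembly genes, 18 had a peak in all 6 libraries, with medians of 97.6, 96.6 and 95.7. The 5 ribosome proteins that carry other symbols (Dap3, Ptcd3, Chchd1, Aurkaip1 and Gadd45gip1) had the lower medians of 93.3, 86.1 and 84.7. Subunit genes of the respiratory chain had 95.2, 93.6 and 94.6, and those of the cytosolic ribosome 92.4, 86.7 and 93.7. The beige mean was the highest of the conditions in each mitochondrial list, while the brown mean was the highest for the cytosolic ribosome. For the respiratory chain the beige and brown means lay close together, with SDs of 0.703 and 0.603. Over all protein-coding genes with a promoter peak in all 6 libraries brown was also highest, at 90.1 against 88.6 in beige and 87.2 in white.

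**Figure D1:**
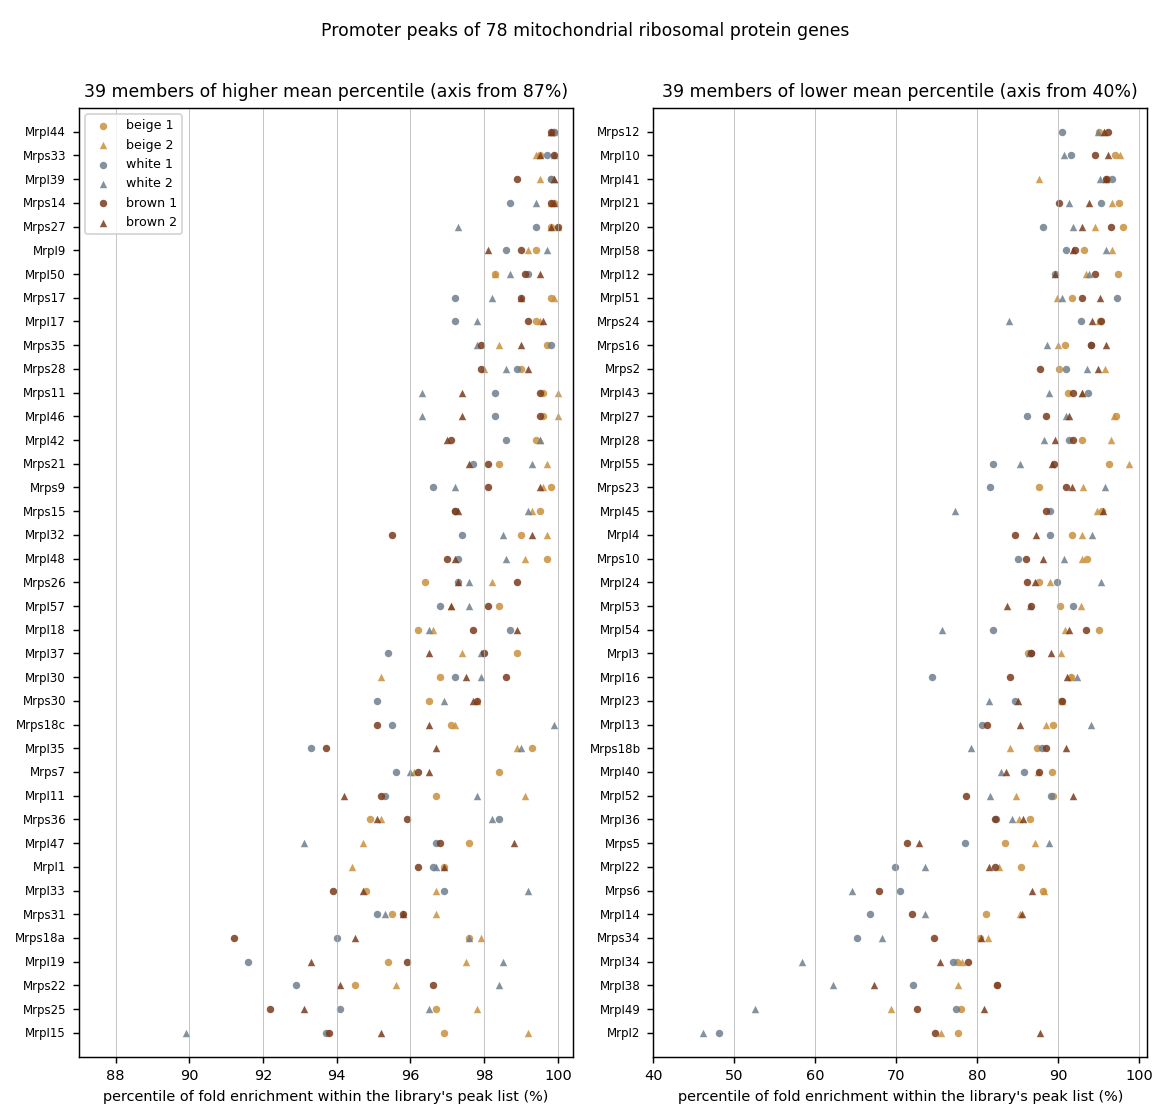
Percentile of fold enrichment of the promoter peak of each of the 78 genes in the 6 libraries, sorted by the mean and split over 2 panels whose horizontal axes differ in range. Colours stand for beige, white and brown, circles for replicate 1 and triangles for replicate 2. Mrpl44 is at the top with all points at 99.8 or 99.9, and Mrpl2 at the bottom with both white points under 50.

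The 5 genes of highest mean percentile were Mrpl44, Mrps33, Mrpl39, Mrps14 and Mrps27. Mrpl44, whose protein has a fold related to RNase III, was at 99.9 and 99.9 in beige, 99.9 and 99.8 in white, and 99.8 and 99.8 in brown. Mrps33 was at 99.5 and 99.4 in beige, 99.7 and 99.9 in white, and 99.9 and 99.5 in brown. Mrpl39, related in sequence to threonyl-tRNA synthetases, ranged from 98.9 in brown replicate 1 to 99.9. In Mrps33 both white values lay above both beige ones by a gap of 0.178 points and brown overlapped with white and beige, and in Mrpl39 the conditions overlapped. Mrps14, a small-subunit protein shared with bacteria, was at 99.9 and 99.8 in beige, 98.7 and 99.4 in white, and 99.8 and 99.9 in brown. Mrps27, a pentatricopeptide repeat protein, was at 99.8 and 100.0 in beige, 99.4 and 97.3 in white, and 100.0 and 99.8 in brown. In Mrps14 and Mrps27 both white values were the lowest of the 6.

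The 5 genes of lowest mean percentile were Mrpl2, Mrpl49, Mrpl38, Mrpl34 and Mrps34. Mrpl2, whose protein is one of the conserved proteins near the peptidyl transferase centre, was at 77.6 and 75.5 in beige, 48.1 and 46.1 in white, and 74.8 and 87.7 in brown. Both white values lay far below the others, and the gap of 27.4 points between the lower beige and the higher white value was the widest of any member in any comparison. In all 6 libraries this interval was also the strongest promoter peak of Klc4, which starts 207 bp away on the other strand. The gap thus cannot be assigned to either gene. Mrps34, a small-subunit protein particular to mitochondria, was at 80.4 and 81.3 in beige, 65.2 and 68.2 in white, and 74.6 and 80.5 in brown, with white again below. Mrpl49 was at 78.0 and 69.3 in beige, 77.4 and 52.6 in white, and 72.5 and 80.8 in brown. Mrpl38 was at 82.4 and 77.6, 72.1 and 62.2, and 82.4 and 67.2 in the same order, and Mrpl34, a short protein shared with bacteria, at 77.5 and 78.1, 77.0 and 58.4, and 78.8 and 75.4. In these last 3 the white replicates differed from each other by 9.93 to 24.8 points.

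The ranks were then compared over the conditions, counting a gene where both of its percentiles in one condition lay above both in the other. In beige over white this held for 36 of 78 members, 46.2%, against 28.5% of the 13738 protein-coding genes with a promoter peak in those 4 libraries. White over beige held for 6 members, 7.69%, against 19.9%. Beige over brown held for 32 members, 41.0%, against 17.4%, and brown over beige for 7, 8.97%, against 33.2%. Brown over white held for 21 members, 26.9%, against 34.6%, and white over brown for 9, 11.5%, against 15.0%. The members were thus called for beige over either other condition more often than genes at large. The balance of brown and white turned with the ranking: among promoter peaks alone brown over white held for 7 members and white over brown for 23, 8.97% and 29.5%, and all genes turned as well, to 18.7% and 29.4%. By -log10 q the members stood at 18 and 26, 23.1% and 33.3%, and all genes at 28.9% and 23.1%. These comparisons share libraries and the members are not replicates, so the shares are descriptions.

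Most of these steps were small. The median gap between the closest values was 1.67 points for the 36 members with beige over white, 1.38 for the 32 with beige over brown and 0.862 for the 21 with brown over white. The median member stood 1.60 points higher in beige than in white, where the median of all genes was 0.689, and 1.31 points higher in beige than in brown, where all genes were at -0.852. In brown against white the median member was 0.579 points higher and the median gene 1.68. Among the 56 members with a mean percentile over 90, beige over white held for 42.9% and beige over brown for 41.1%, against 29.8% and 17.6% of the 6052 protein-coding genes in that range. The pattern was not the same in every related list. For beige over white, the share was 35.3% in the other mitochondrial translation genes, 47.7% in respiratory chain genes and 52.0% in cytosolic ribosomal protein genes. For beige over brown it was 33.3%, 20.5% and 17.1% in the same order.

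**Figure D2:**
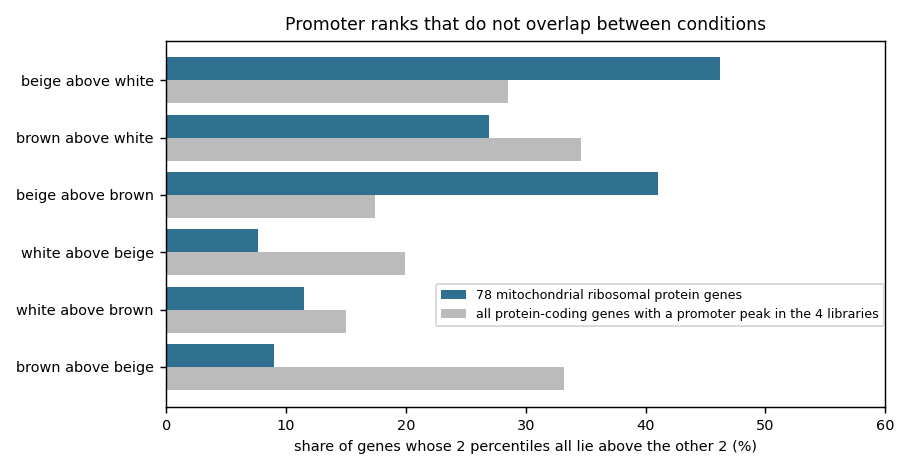
Share of genes, in percent, whose 2 percentiles in the first named condition both lie above the 2 in the other, for the 78 mitochondrial ribosomal protein genes (blue) and all protein-coding genes with a promoter peak in the 4 libraries (grey). The blue bar is the longer one for beige above white (46.2% against 28.5%) and beige above brown (41.0% against 17.4%), and the shorter one in the other 4.

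After Mrpl2, the widest gap for beige over white was that of Mrps6, a small-subunit protein shared with bacteria, at 88.1 and 88.3 in beige, 70.4 and 64.5 in white, and 67.9 and 86.8 in brown. Beige stood apart from white, while brown replicate 1 lay between the white values and brown replicate 2 next to beige. In white replicate 2 the strongest Mrps6 peak was a different one, 881 bp downstream of the start. Mrpl54 had the second widest gap for brown over white, at 95.1 and 90.9 in beige, 82.0 and 75.6 in white, and 93.4 and 91.3 in brown, so that both white values were lowest. Mrps5, a conserved protein of the small subunit's decoding face, led the gaps of beige over brown and of white over brown. It was at 83.4 and 87.1 in beige, 78.5 and 88.9 in white, and 71.3 and 72.8 in brown, with both brown values below the rest. Mrpl55 followed for beige over brown, at 96.3 and 98.8 in beige, 82.0 and 85.3 in white, and 89.5 and 89.2 in brown, an order in which no values of different conditions overlapped.

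Fewer members ran the other way. Mrps36 was at 94.9 and 95.2 in beige, 98.4 and 98.2 in white, and 95.9 and 95.1 in brown, and had the widest gap of white over beige at 3.04 points. Mrpl24, a conserved large-subunit protein, was at 87.6 and 89.0 in beige, 89.9 and 95.3 in white, and 86.2 and 87.1 in brown, with white highest. Mrps16, a small-subunit protein shared with bacteria, led brown over beige at 94.0 and 95.9 against values of at most 90.9 in beige, and its white values of 94.1 and 88.6 overlapped with both. Mrpl51 was at 93.0 and 95.2 in brown and at 91.7 and 89.8 in beige, and again white, at 97.3 and 90.5, overlapped with both. No gap in this group passed 3.13 points.

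The summits lay close to the annotated starts. The median distance in either direction was 27.5 and 28.5 bp in the beige libraries, 44.5 and 41.5 bp in white and 36.5 and 34.0 bp in brown, against 62.0 to 77.0 bp for all genes with a promoter peak. Beige was nearest and white farthest, beyond the spread between replicates, and the all-gene medians had the same order, with 62.0 and 63.0 bp in beige, 70.0 and 77.0 bp in white, and brown between them. Between 43 and 51 members per library had the summit within 50 bp of a start, 55.1% to 65.4%, against 40.6% to 44.3% of all genes. In 44 of 78 members, 56.4%, the 6 summits fell within 50 bp of each other, against 46.7% of genes with a promoter peak in all 6. The median span of the 6 summits was 37.5 bp in members and 56.0 bp in those genes. In the remaining members the summits spread wider, up to 24779 bp in Mrpl48.

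The 3 members with the farthest summits by the mean over the 6 libraries kept that distance, while others were farther in single libraries, such as Mrps6 at 881 bp in white replicate 2 and Mrpl14 at -873 and -855 bp in the white libraries. In Mrps36 the summit was 449 to 478 bp downstream of the start, and in Mrpl39 it was 356 to 373 bp downstream, in all 6 libraries. In Mrpl51 it was 371 to 470 bp upstream, which places it in 5 of the 6 libraries between its start and that of Ncapd2, a condensin subunit gene read the other way from 464 bp away. For 2 members the strongest peak changed between alternative starts over 1 kb apart. Mrpl48 used the start at chr7:100583102 in 5 libraries and that at chr7:100608301 in brown replicate 2. Mrpl36, a short large-subunit protein shared with bacteria, used the start at chr13:73328513 in white replicate 1 and brown replicate 2 and starts over 1 kb downstream in the others.

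Member widths lay close to those of promoter peaks at large. The median width of the member intervals was 728 and 832 bp in beige, 650 and 698 bp in white, and 708 and 675 bp in brown, and that of all promoter peaks 775 and 825, 654 and 730, and 718 and 687 bp. Both beige medians were above those of the other conditions in the members as in all genes. The widest member peak was that of Mrpl41, at 1384 and 1492 bp in beige, 1196 and 1598 bp in white, and 1367 and 1540 bp in brown. Mrpl47, at 897 to 1358 bp, and Mrpl37, at 726 to 1291 bp, were the next widest, each lowest in white replicate 1. The narrowest was Mrps10, at 271 and 615 bp in beige, 560 and 222 bp in white, and 240 and 223 bp in brown, followed by Mrpl22, whose protein lines the exit tunnel, at 202 to 578 bp, and Mrpl45, which holds the ribosome at the inner membrane, at 418 to 512 bp. Mrpl22 was at 203 and 202 bp in white, with summits 246 and 245 bp downstream of the start, and at 328 bp or more elsewhere with summits 3 to 29 bp upstream.

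Head-to-head starts were common among these genes. A protein-coding start on the other strand, within 1 kb and facing away or overlapping at its 5′ end, was annotated for 32 of 78 members, 41.0%. The share was 10.5% of all protein-coding genes and 16.0% of the 13547 genes with a promoter peak in all 6 libraries. In 23 the starts diverged with bases between them, and in 9 the transcripts overlapped at their 5′ ends. The median distance was 99.5 bp, and 16 lay within 100 bp. In 28 of the 32, member and partner had the same interval as strongest promoter peak in all 6 libraries, and in the other 4 (Mrpl54, Mrpl36, Mrps5 and Mrpl48) in 1 to 5 libraries. Since the pair shares the interval, its rank cannot be assigned to either gene.

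**Figure D3:**
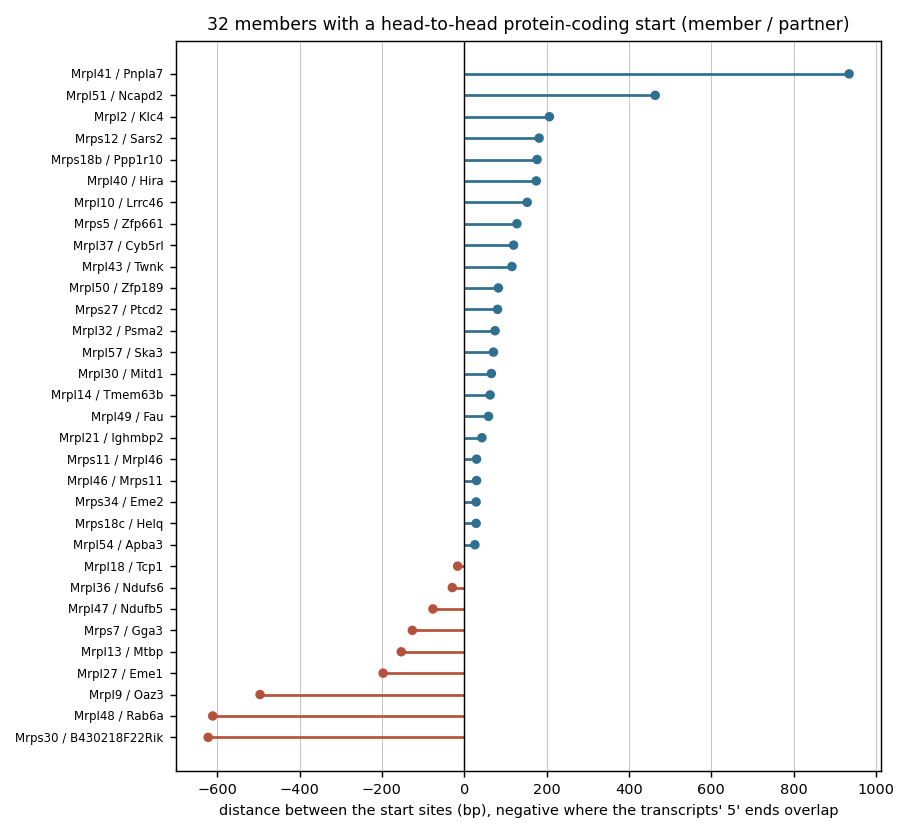
Distance in bp between the start of each of the 32 members and that of its head-to-head protein-coding partner, positive (blue) where the starts diverge and negative (red) where the transcripts overlap at their 5′ ends. Most pairs lie within 250 bp, 27 of 32.

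The closest pairs were Mrpl18 with Tcp1, a subunit gene of the cytosolic chaperonin, whose 5′ ends overlapped with starts 16 bp apart, and Mrpl54 with Apba3, which diverged from starts 26 bp apart. Mrpl36 and Ndufs6, a complex I subunit gene, overlapped with starts 29 bp apart. Mrps18c and the DNA helicase gene Helq diverged over 29 bp, as did Mrps34 and Eme2, a subunit gene of a DNA structure-specific endonuclease, both printed above. Mrpl46 and Mrps11 were each other's partner, with starts at chr7:78783089 and chr7:78783119 that lay 30 bp apart, so that a large-subunit and a small-subunit gene had 1 interval in every library and the 78 members had 77 distinct intervals. That interval was at 99.6 and 100.0 in beige, 98.3 and 96.3 in white, and 99.5 and 97.4 in brown, with both white values below both beige ones, and brown overlapping with white. Its summit lay 17 to 39 bp inside Mrpl46, never between the starts.

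Several partners also act in mitochondria. Beside Ndufs6, Ndufb5 of complex I overlapped Mrpl47 with starts 76 bp apart. Sars2, the mitochondrial seryl-tRNA synthetase gene, started 182 bp from Mrps12, a protein of the decoding centre, and Twnk, the mitochondrial DNA helicase gene, 116 bp from Mrpl43. Ptcd2, a mitochondrial pentatricopeptide repeat protein gene, started 81 bp from Mrps27. Among the others were Fau, which encodes a cytosolic ribosomal protein, 59 bp from Mrpl49, Psma2 of the proteasome 75 bp from Mrpl32, and the histone chaperone gene Hira 175 bp from Mrpl40. The summit lay between the 2 starts in 6 of 6 libraries for Mrpl57, Mrpl50 and Mrpl37 and in 5 of 6 for Mrps27, Mrps34, Mrps12, Mrpl43, Mrpl2, Mrpl51 and Mrpl41. The 32 members with a partner had a median mean percentile of 94.6 and a median mean width of 731 bp, and the 46 without one 94.9 and 687 bp. Among all genes with a promoter peak in all 6 libraries the medians were 92.8 and 864 bp with a partner and 86.8 and 739 bp without.

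Transcription factor consensus letters were counted in 201 bp centred on each summit, on both strands. The base composition of these windows was close to that of promoter peaks at large, with a median GC content of 63.2% to 64.7% against 65.2% to 66.2%. The ETS consensus CCGGAAG, bound by a large family that includes Ets1 and the NRF2 subunit GABPA, was in 26 to 31 members per library, 33.3% to 39.7%, against 14.2% to 14.7% of all promoter peaks of protein-coding genes. In 22 members it was there in all 6 libraries. The NRF1 consensus GCGCANGCG was in 16 to 19 members, 20.5% to 24.4%, against 9.59% to 11.7%, and in 12 in all 6 libraries. Both were present in all libraries in 4 members, which were Mrps21, Mrps26, Mrps33 and Mrpl57, and either in 30, while 29 members had neither in any library. NRF1 and NRF2 are known as regulators of nuclear genes for mitochondria. A match is a run of letters and not evidence of binding.

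The YY1 consensus AANATGGCG was in 14 to 17 members, 17.9% to 21.8%, against 4.17% to 4.58% of promoter peaks, and in 13 in all 6 libraries. In beige replicate 1, 13 of its 16 matches lay downstream of the start and 13 read in the direction of the gene, 81.2% each, with a median position of 25.0 bp after the start. Over all genes 67.0% of matches lay downstream and 66.6% read in the gene's direction, with a median of 23.0 bp. In 11 of the 16 members with a match it covered an annotated start codon of the gene, 68.8%, against 36.0% of the 705 genes with a match. The letters ATGGCG at its core also read as a methionine codon followed by one for alanine. The matches of Mrps14, Mrps27 and Mrpl46 printed above are among these 11. ETS matches sat nearer the start, with a median of -6.50 bp over 36 matches and 72.2% of them within 50 bp, against 55.6% within 50 bp over all genes. The 24 NRF1 matches, overlapping ones counted each, had a median of 11.0 bp against -32.0 bp. Letters were sought only around summits, and in beige replicate 1 these lay nearer the start in members than in all genes, at medians of 27.5 and 62.0 bp. The part of that in the match positions and in the start codon share was not tested.

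Of the other consensus letters, those of ZNF143 were above the share of promoter peaks in every library, those of NF-Y were close to it on either side, and the rest were below it or, for CREB in white replicate 2, level with it. SP/KLF letters (GGGCGG) were in 44.9% to 47.4% of member windows against 56.0% to 60.8%, and NF-Y letters (CCAATNA or CCAATNG) in 20.5% to 24.4% against 20.3% to 23.5%. E-box letters (CACGTG) were in 1 to 4 members against 6.34% to 7.88% of promoter peaks, AP-1 letters (TGANTCA) in 0 to 2 against 4.84% to 5.41%, and CREB letters (TGACGTCA) in 1 to 2 against 2.54% to 3.10%. TCTCGCGA was in 1 member against 1.55% to 1.90% of promoter peaks, and the ERR letters TNAAGGTCA in none against 0.263% to 0.313%, which is fewer than 1 window in 78. The ZNF143 letters ACTACAA were in 4 to 6 members, 5.13% to 7.69%, against 2.80% to 3.01%. For each of the 11 consensus sets the counts moved by at most 5 members over the 6 libraries.

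**Figure D4:**
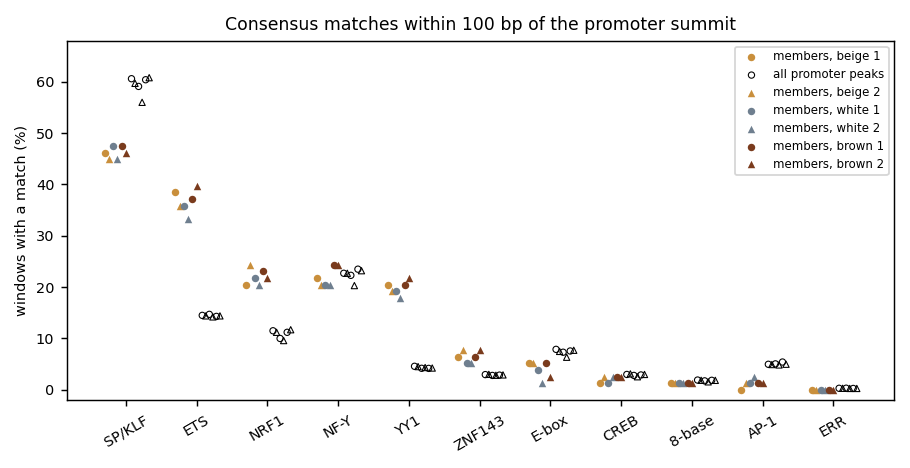
Percent of 201 bp summit windows that hold each consensus, for the 78 members (filled points, coloured by condition, circles replicate 1 and triangles replicate 2) and for all promoter peaks of protein-coding genes in the same library (open points). Members lie above promoter peaks at large for ETS, NRF1, YY1 and ZNF143 and below them for SP/KLF. The point labelled 8-base is TCTCGCGA.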

How the data were processed

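The authors trimmed the reads, aligned them to mm10 with BWA and called peaks per library with MACS2 at a q value threshold. The tools named in the labels are BWA, SAMtools, MACS2, deepTools and DESeq2, without versions. The deposited lists give for each summit a fold enrichment, which is a ratio to the local background, and -log10 p and q values, and a score that was not used. Replicates were not pooled.

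Intervals with several summits were counted once, at the summit of highest -log10 q. Start sites are those of protein-coding transcripts in the GENCODE M21 basic set, and sequences were read from the RefSeq copy of GRCm38.p6, the assembly named mm10. Percentiles, distances, head-to-head starts and letter matches were computed with Python 3.11.15, numpy 2.4.6 and pandas 2.3.3, and the code was tested on simulated data. The members and lists were chosen with earlier results of these data known. The genes described are, by a fixed rule, the 5 of highest and 5 of lowest mean percentile, the 2 of widest gap in each comparison, the 3 widest and 3 narrowest peaks, the 5 closest head-to-head starts, members that share a start, and the 3 farthest summits. Partners beyond those and the genes named for letter matches were chosen after their values were seen. Alternatives changed the q threshold, list length, promoter distance, ranking, start site, partner type and window. No test was run between conditions.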

Additional observations from a re-analysis of the deposited data

How the results depend on the processing

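All 78 members kept a promoter peak in all 6 libraries at q under 0.01 or 0.00001, with lists of equal length, at 3 kb, with the interval over a start site and without any 1 library; at 500 bp it was 77. At q under 0.00001 the median percentile was 95.4 in beige, 92.8 in white and 93.2 in brown, and with lists of equal length 95.8 in beige. Ranked among promoter peaks alone the medians were 88.1, 85.9 and 81.9, and ranked by -log10 q brown was at 93.8. With 1 replicate left out, medians ranged from 96.2 to 96.3 in beige, 93.8 to 95.3 in white and 94.6 to 95.0 in brown, widths from 728 to 832, 650 to 698 and 675 to 708 bp, and distances from 27.5 to 28.5, 41.5 to 44.5 and 34.0 to 36.5 bp. With the 5′ end of the gene as start, distances were 30.5, 49.5 and 37.8 bp.

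Ranked among promoter peaks, brown over white fell from 21 to 7 members, and white over beige rose from 6 to 13 and white over brown from 9 to 23. Ranked by -log10 q, beige over brown rose from 32 to 52 and white over brown from 9 to 26. Over all genes these shares were 18.7%, 26.9%, 29.4%, 34.1% and 23.1%, so that white over brown and brown over white changed places in the members with either ranking; the cause was not tested. Among promoter peaks all genes changed places too, from 34.6% and 15.0% for brown over white and white over brown to 18.7% and 29.4%, but by -log10 q they did not, at 28.9% and 23.1%. Beige over white stayed between 27 and 40 members, against 23.5% to 35.5% of all genes, and was nearest to them by -log10 q, at 42.3% against 35.5%. Mrpl2 was lowest in both white libraries under each of 4 other rankings or lists, at 75.4 and 73.0 by -log10 q and at 37.9 and 40.7 among promoter peaks. Of 42 separations of 2 conditions in members named by rule, 4 were lost by -log10 q (brown over white in Mrps27 and Mrps34, white over beige in Mrps33, brown over beige in Mrpl18), 7 among promoter peaks (brown over white in Mrpl22, Mrpl47, Mrpl55 and Mrps34, beige over white in Mrpl34, Mrpl36 and Mrps10), 1 at q under 0.00001 (white over beige in Mrpl24) and 5 with lists of equal length (beige over white in Mrpl34 and Mrpl36, beige over brown in Mrpl22, Mrpl24 and Mrps6). ETS matches were in 27.4% of members with 50 bp to each side and in 46.8% with 250 bp, against 10.1% and 20.2% of promoter peaks, and NRF1 matches in 12.8% and 29.7%, against 7.10% and 15.1%. Head-to-head starts numbered 29 within 500 bp and 36 with partners of any gene type. No paired analysis was possible because replicate numbers only name samples, and the labels do not say which replicates of different conditions belong together. Percentiles near 100 leave little room to differ, peak lists give no read counts, and a shared interval cannot be split between its genes.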

Other observations

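Away from start sites, 90 regions inside 29 of the member genes held a peak in at least 1 library, with the summit over 1 kb from every protein-coding start. Of these regions 31 were called in all 6 libraries. The strongest of them lay in Mrps27, at chr13:99352747-99353840, with -log10 q values of 196 and 244 in beige, 114 and 85.9 in white, and 252 and 215 in brown. In 7 regions the call was made in both replicates of 1 or 2 conditions and in no other library, and 52 had a mixed pattern. Beige alone had regions in Mrpl33, Mrpl37 and Mrps31, with -log10 q values of 3.08 to 5.25, and white alone in Mrps18a and Mrps6, with 3.80 to 5.82. The region of Mrps30 at chr13:118379251-118379455 was called in beige, at 9.46 and 16.3, and in white, at 6.64 and 6.59, and in neither brown library. The region of Mrps28 at chr3:8866249-8866735 was called in white, at 2.49 and 4.87, and in brown, at 4.93 and 4.43, and in neither beige library. No region was called in both brown libraries alone. All of these genes were singled out after their values were seen. Such weak calls can be missed in a list for want of depth. The study reports fewer mapped reads for beige than for white and none for brown, and the part of depth in these calls was not tested.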
